A study of Sus scrofa with 3 samples.

Results

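CREB3L3, PLK5, ACSM5 and NELL2 were the 4 genes examined, out of 34570 listed in the kidney count table. They were chosen by their measured values, because their levels in both libraries from castrated pigs lay far from that of intact pigs, whether or not the castrated pigs had received testosterone. The values in the 3 libraries, and every comparison between them, are therefore a description of the choice and support nothing further. All 4 were found as named rows typed as mRNA, and all 4 were among the 15472 genes with a mean of at least 1 CPM (counts scaled to the size of the library) over the libraries, which were the genes compared.

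The animals were Chinese Wuzhishan pigs, a miniature breed, 6 to 7 months old, all male and all given high-fat and high-cholesterol feed (HFC). The groups were castrated males with testosterone replacement (CMT), castrated males without it (CM) and intact males (IM), with 3 pigs in each. Equal amounts of kidney RNA from the 3 animals were combined before 1 library per group was made, so a value is that of a mixture and the spread between pigs is not seen. No group without the diet was analysed here, and neither the testosterone dose nor the age at castration nor blood hormone values are stated in the labels. The design text speaks of triplicates on an Illumina instrument and the labels of pools and an Ion Torrent kit; 1 column of counts per group was used.

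The 4 genes have unrelated roles. CREB3L3, also called CREBH, is a transcription factor held in the membrane of the endoplasmic reticulum; it is cut in the Golgi by the site-1 and site-2 proteases, and in mouse liver the freed part drives genes of triglyceride handling and fasting, among them apolipoproteins and FGF21. PLK5 is the member of the polo-like kinases that is known from mouse brain rather than from dividing cells, and its human form lacks most of the kinase domain. ACSM5 belongs to the mitochondrial medium-chain acyl-CoA synthetases, which activate medium-chain fatty acids and aromatic acids and are known from liver and kidney. NELL2 is a secreted glycoprotein of neurons; in the mouse it also travels from the testis along the duct to the epididymis, where it acts through the receptor kinase ROS1, and in axon guidance it binds the receptor ROBO3.

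Total counts were 13601475 in CMT, 18503537 in CM and 16459771 in IM, and a count of 0 allows up to 0.227, 0.159 and 0.181 CPM in them, taken in the same order. Levels are CPM scaled by trimmed mean of M values (TMM) library factors. With 1 library per group there is no replicate check and no p-value. Folds are ratios of scaled counts, and the range after each is its exact 95% interval, which covers counting error only; the call of higher or lower needs that whole interval to be past 2-fold. The markers of kidney were present: 11 matched proximal tubule genes summed to 19782 CPM in CMT, 20645 in CM and 19049 in IM, with none called in any comparison. That count is near the background, since 0.595% to 1.84% of all compared genes were called per direction and comparison. In bulk tissue, fewer cells of a type and less RNA per cell cannot be told apart.

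CREB3L3 was lowest in the intact library and highest in the library with testosterone. It gave 667 counts in CMT, 411 in CM and 35 in IM, which are 50.4 CPM (46.6 to 54.4), 21.7 CPM (19.7 to 23.9) and 2.11 CPM (1.47 to 2.94). None of these 3 counting intervals overlapped another. The fold of CM over IM was 10.3 (7.28 to 15.0), and that of CMT over IM was 23.8 (17.0 to 34.5). CMT also lay above CM, by 2.32-fold (2.05 to 2.63), so the library with testosterone was farther from IM than the one without. That last call was narrow: the lower bound was 1.95 when libraries were scaled by total counts and 1.99 when all were thinned to the smallest library.

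PLK5 had the same order of levels. It gave 287 counts in CMT, 181 in CM and 19 in IM, which are 21.7 CPM (19.2 to 24.3), 9.58 CPM (8.23 to 11.1) and 1.15 CPM (0.691 to 1.79). The 3 intervals were again separate, and IM held the fewest counts. CM stood 8.34-fold (5.19 to 14.2) above IM and CMT 18.9-fold (11.9 to 31.8) above IM. The fold of CMT over CM was 2.26 (1.87 to 2.74), whose interval lay above 1 but did not clear 2-fold, so it was not called.

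ACSM5 was the one of the 4 whose level in CMT lay on the IM side of CM, and only slightly so. It gave 343 counts in CMT, 610 in CM and 23 in IM, which are 25.9 CPM (23.2 to 28.8), 32.3 CPM (29.8 to 34.9) and 1.39 CPM (0.881 to 2.08). Both castrate libraries were far above the intact one, and the interval of CMT lay just under that of CM. CM was 23.2-fold (15.3 to 36.9) and CMT 18.7-fold (12.2 to 29.8) above IM. The fold of CMT over CM was 0.803 (0.702 to 0.918), not called, and on the log2 scale CMT closed 7.11% of the difference between CM and IM.

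NELL2 went the other way and was highest in the intact library. It gave 6 counts in CMT, 19 in CM and 340 in IM, which are 0.453 CPM (0.166 to 0.987), 1.01 CPM (0.605 to 1.57) and 20.5 CPM (18.4 to 22.8). It passed the filter on low values through IM. CM was 20.4-fold (12.9 to 34.4) and CMT 45.3-fold (20.6 to 124) below IM. The fold of CMT over CM was 0.451 with an interval from 0.147 to 1.17, so on 6 and 19 counts no difference between the castrate libraries was detectable at this depth.

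**Figure D1:**
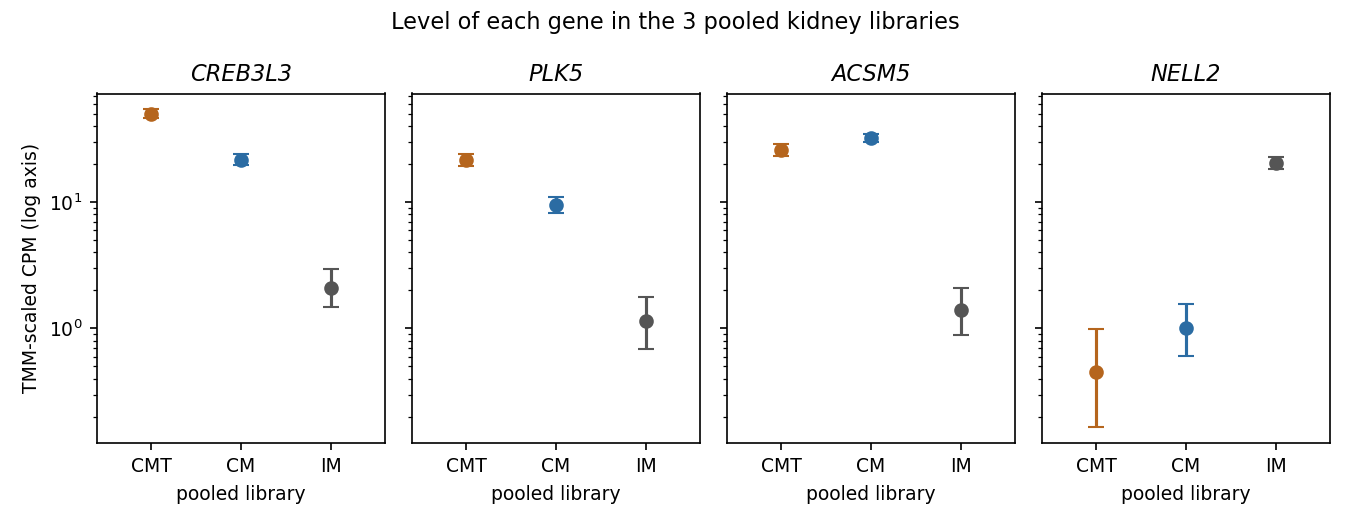
Level of each of the 4 genes in the CMT, CM and IM libraries, in TMM-scaled CPM on a log axis; points are single pooled libraries and bars are exact 95% Poisson intervals of the count. CREB3L3, PLK5 and ACSM5 stand at 1.15 to 2.11 CPM in IM and at 9.58 CPM or more in both castrate libraries, and NELL2 stands at 20.5 CPM in IM and at 1.01 CPM or less in both.

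**Figure D2:**
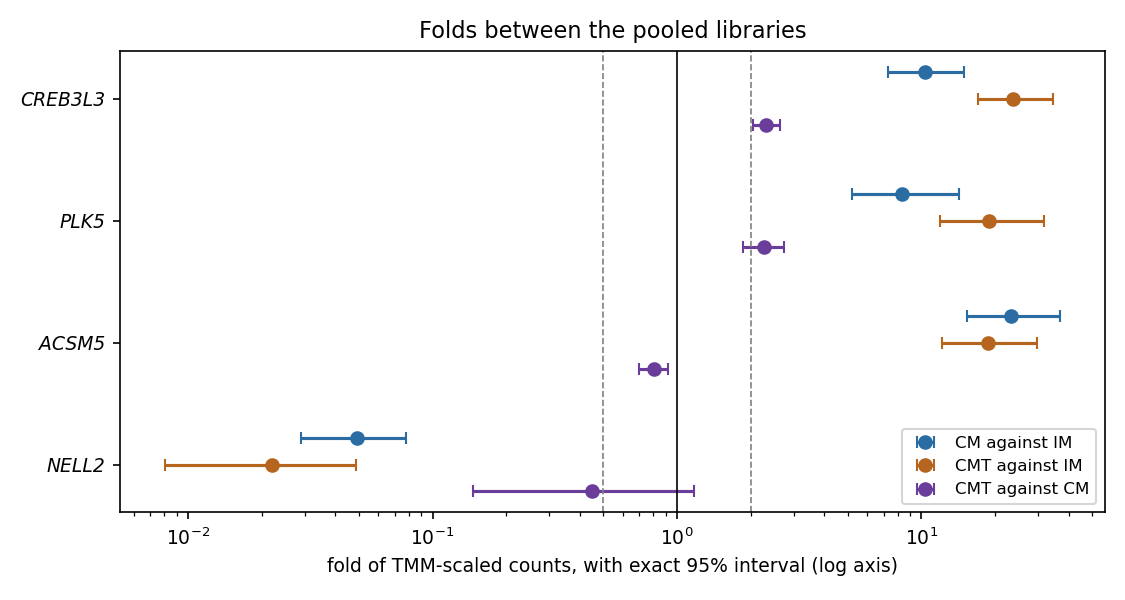
Fold of scaled counts between libraries for the 4 genes, on a log axis, with exact 95% intervals; the solid line marks 1 and the dashed lines 2-fold in either direction. The intervals of both castrate libraries against IM lie beyond the dashed lines for all 4 genes, and of the CMT over CM intervals only that of CREB3L3 (2.05 to 2.63) does.

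Calls of this size were few in the whole table. In CM against IM 1.20% of the compared genes were called higher, as CREB3L3, PLK5 and ACSM5 were, and 1.52% lower, as NELL2 was. In CMT against IM the shares were 0.905% higher, with the same 3 genes, and 0.595% lower, with NELL2. Nothing is read from these counts for the 4 genes, since the same values chose them. Both comparisons share the IM library, so a level that is off in IM would show in both.

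Genes called on the same side of IM in both castrate libraries numbered 55 higher and 25 lower, which are 0.355% and 0.162% of the compared genes. The 55 made up 39.3% of the 140 genes called higher in CMT and 29.7% of the 185 called higher in CM; the 25 made up 27.2% of the 92 called lower in CMT and 10.6% of the 235 called lower in CM. Ranked by the weaker of their interval bounds, ACSM5 was the first of the 55, CREB3L3 stood at rank 7 and PLK5 at rank 12, and NELL2 was the first of the 25. The other 3 of the 5 named genes at the top of the higher side were MT1A and MT-2B, metallothioneins that bind zinc and copper, and ASGR1, a subunit of the liver's asialoglycoprotein receptor. On the lower side 10 of the 25 had a symbol. Among those, NELL2 was followed by PLG, the plasminogen gene, and ALB, the serum albumin gene, at ranks 5 and 7 of the 25. PVALB1 and CCL8, a chemokine gene, came next among them, at ranks 12 and 16. PLG, like NELL2, passed the filter on low values through IM. ASGR1, with 0 counts in IM, passed it through the castrate libraries.

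Within these sets the position of CMT varied. MT1A gave 860 counts in CMT, 4013 in CM and 82 in IM, and MT-2B gave 1615, 7318 and 271 in that order; each was lower in CMT than in CM, by 3.27-fold (3.03 to 3.52) and 3.17-fold (3.01 to 3.35), and so nearer to IM. Reads of these similar genes may have been shared between them. Of the 55, CMT was called lower than CM in 14 and higher in 2, and 39 were not called. The 2 were CREB3L3 and TTR, the gene of transthyretin, a carrier of thyroid hormone and of retinol-binding protein, named after its values were seen. TTR gave 775 counts in CMT, 489 in CM and 133 in IM, and was 2.26-fold (2.02 to 2.54) higher in CMT than in CM. Of the 25 on the lower side, CMT was called higher than CM in 1 and lower in 0, and 24 were not called; the 1 was ALB, 24.0-fold (15.9 to 38.0) higher in CMT than in CM and so nearer to IM. Called genes of CMT against CM made up 1.84% of all compared genes on the higher side and 1.11% on the lower.

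Another pattern was that of genes in which CM lay apart from both other libraries. SULT2A1, a sulfotransferase of steroids, gave 15219 counts in CMT, 2 in CM and 5929 in IM; CMT was called higher than IM as well, by 3.21-fold (3.12 to 3.31). HSD17B2, which oxidises testosterone and estradiol, gave 365 counts in CMT, 1686 in CM and 351 in IM, with a CMT over CM fold of 0.309 (0.275 to 0.346). For both, CM was the library farthest from the others, whereas for the 4 genes IM was.

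**Figure D3:**
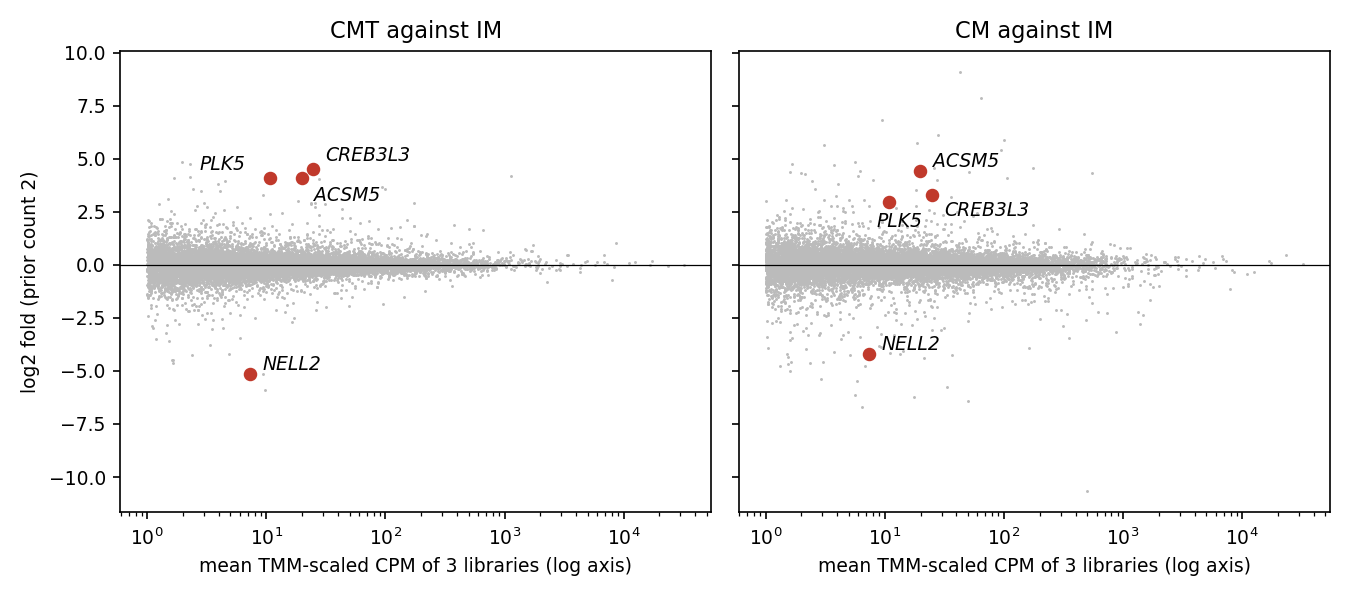
Log2 fold (prior count 2) of CMT against IM and of CM against IM for the 15472 compared genes, against the mean TMM-scaled CPM of the 3 libraries on a log axis; each grey point is a gene and the 4 genes are in red. CREB3L3, PLK5 and ACSM5 lie at log2 folds of 2.94 to 4.49 and NELL2 at -5.14 and -4.21, while the median log2 fold of all compared genes is -0.013 in CMT against IM and -0.006 in CM against IM.

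The patterns most like each gene were looked for among named genes, by the distance between log2 levels centred over the 3 libraries. CREB3L3 and PLK5 were each the other's nearest, at a distance of 0.31, followed by ASGR1 at 0.63 from CREB3L3 and 0.91 from PLK5. ASGR1 gave 50 counts in CMT, 40 in CM and 0 in IM. The third nearest to CREB3L3 was ACSM5, at 1.12. The third nearest to PLK5 was EIF2S2, a subunit gene of a translation initiation factor, at 0.96, with 77 counts in CMT, 48 in CM and 11 in IM. The nearest to ACSM5 were ASGR1 at 0.83, MT1A at 1.01 and MT-III at 1.02. NELL2 had no such close neighbour: PVALB1 at 2.28, PLG at 2.29 and CYP1A1 at 2.34 were its nearest. These distances rest on 3 libraries.

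The relatives of CREB3L3 and the proteins that handle it had folds over IM nearer to 1 than CREB3L3, which was chosen for its distance from IM. Of the 6 genes of the CREB3 and ATF6 family, transcription factors of the same build, 5 were compared and none was called in any comparison, a count that the background of 0.595% to 1.84% called per direction and comparison would give for most sets of this size. CREB3, for one, gave 3688 counts in CMT, 4204 in CM and 4144 in IM, with folds of 1.11 (1.06 to 1.16) for CMT over IM and 0.889 (0.851 to 0.928) for CM over IM. CREB3L1 and CREB3L2 stood at CMT over IM folds of 1.06 (0.849 to 1.33) and 0.974 (0.894 to 1.06), and ATF6 and ATF6B at 0.732 (0.557 to 0.958) and 1.08 (0.987 to 1.17). CREB3L4, with 8, 25 and 17 counts in CMT, CM and IM, was below the filter. MBTPS1 and MBTPS2, the site-1 and site-2 proteases, had CMT over IM folds of 1.03 (0.974 to 1.08) and 0.942 (0.743 to 1.19). SYVN1 and SEL1L of the ligase that degrades the uncut protein, and SCAP of sterol sensing, were not called either, and the median log2 fold of these 5 handling genes was 0.07 in CMT against IM and -0.10 in CM against IM, beside all-gene medians of -0.013 and -0.006.

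Among genes that CREB3L3 is known to drive in mouse liver, those of 4 apolipoproteins were highest in the castrate library without testosterone. Of 18 on the list 16 were matched and 10 compared; in CM against IM 4 were called higher and 0 lower, in CMT against IM 0 were called, and in CMT against CM 1 was higher and 3 were lower. Over all compared genes 1.20% were called higher and 1.52% lower in CM against IM, 0.905% and 0.595% in CMT against IM, and 1.84% and 1.11% in CMT against CM. The median log2 fold was 0.16 in CM against IM, 0.34 in CMT against IM and -0.54 in CMT against CM, and the last turned to 0.12 when genes of any count were kept. The 4 called higher were apolipoprotein genes. APOA5 and APOA4 among them passed the filter on low values through CM, where they were highest. The counts of calls on this list are therefore not read against the shares of all genes. APOC3, whose product slows the clearance of triglycerides, gave 307 counts in CMT, 1591 in CM and 249 in IM, and CM lay 5.60-fold (4.89 to 6.42) above IM. APOA1, of high-density lipoprotein, gave 323, 739 and 262 counts in that order, with a CM over IM fold of 2.47 (2.14 to 2.86).

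APOA5, an activator of triglyceride lipolysis, gave 4 counts in CMT, 57 in CM and 9 in IM, with a CM over IM fold of 5.55 (2.73 to 12.7). APOA4, of intestinal lipoproteins, gave 8 counts in CMT, 42 in CM and 3 in IM, a CM over IM ratio of 12.3 (3.92 to 61.8). CMT was called lower than CM in APOC3, by 3.63-fold (3.21 to 4.11), and in APOA5, by 9.98-fold (3.69 to 37.9). In these 4 genes CM was the highest library, unlike CREB3L3, which was highest in CMT. The third gene lower in CMT than in CM was PPARA, a receptor for fatty acids that is on the list of known regulators of CREB3L3 too, by 3.16-fold (2.46 to 4.11) on 76 counts in CMT and 343 in CM. PCK1, of gluconeogenesis, was higher in CMT than in CM by 2.54-fold (2.52 to 2.56). CPT1A, also on the list, stood at 494 CPM in CMT, 243 in CM and 323 in IM. Its CMT over CM fold was 2.03 (1.96 to 2.11), not called. The compared genes of the list thus had no common order. PCK1, CPT1A and INSIG2 were highest in CMT, like CREB3L3, PPARA was highest in CM, and CIDEC and BDH1 were highest in IM. For INSIG2 and BDH1 the margin lay within counting error. FGF21, the fasting hormone that CREB3L3 drives in mouse liver, was below the filter with 10 counts in CMT, 8 in CM and 5 in IM.

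**Figure D4:**
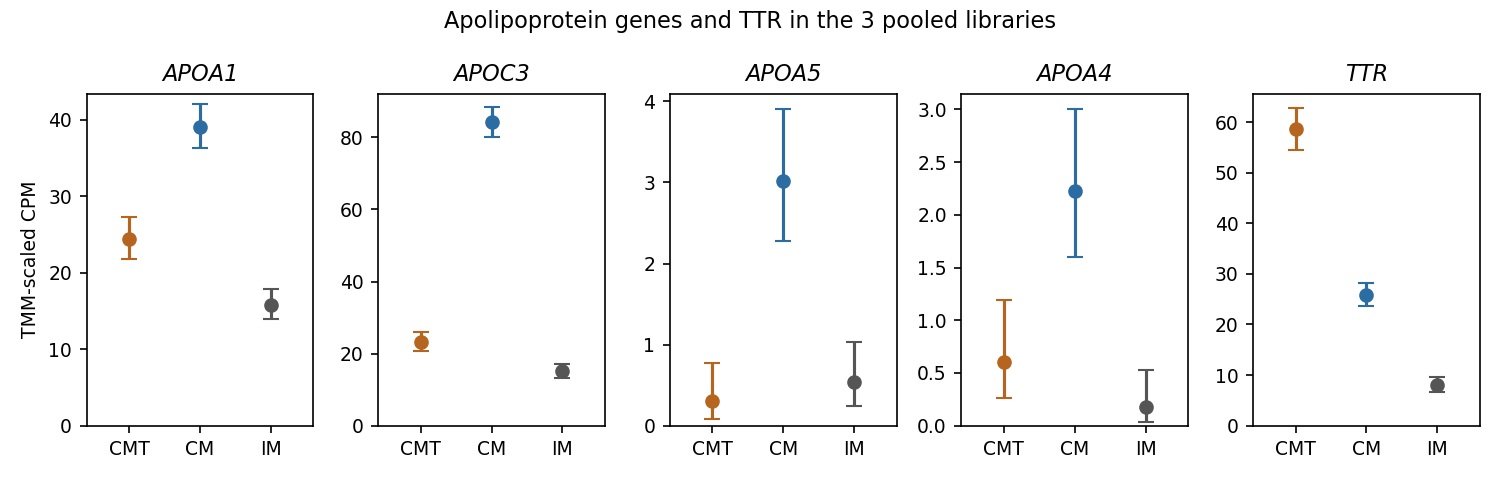
TMM-scaled CPM of 4 apolipoprotein genes and of TTR in the CMT, CM and IM libraries, on linear axes from 0 that differ between panels, with exact 95% Poisson intervals of the single library's count. The apolipoprotein genes are highest in CM, as APOC3 at 84.2 CPM against 23.2 in CMT and 15.0 in IM, while TTR is highest in CMT at 58.6 CPM.

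Of 5 matched regulators of CREB3L3 known from liver, none was called in CM against IM or in CMT against IM. Over all compared genes 0.595% to 1.52% were called per direction there, so most sets of this size would give that count. In CMT against CM 1.84% of all compared genes were called higher and 1.11% lower. HNF4A, a nuclear receptor of liver and proximal tubule, had a CMT over IM fold of 1.04 (1.01 to 1.07), and NR3C1, the glucocorticoid receptor, 0.857 (0.759 to 0.968). PPARA and NR1H4 lay past 2-fold without an interval that cleared it: PPARA had a CMT over IM fold of 0.406 (0.309 to 0.528), and the bile acid receptor NR1H4 a CM over IM fold of 0.491 (0.441 to 0.546). In CMT against CM, NR1H4 was higher by 2.45-fold (2.20 to 2.73), with 921 counts in CMT, 536 in CM and 957 in IM, and PPARA was lower as above.

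The other polo-like kinases were measured too. PLK2, which regulates stress responses and synapses, gave 1554 counts in CMT, 1407 in CM and 1374 in IM, and PLK3, a kinase of the DNA damage response, gave 99, 70 and 90. The CMT over IM folds were 1.41 (1.31 to 1.52) and 1.38 (1.02 to 1.85), and the CM over IM folds 0.897 (0.832 to 0.967) and 0.681 (0.491 to 0.941); none was called. PLK1, the mitotic kinase, with 9 counts in CMT, 14 in CM and 9 in IM, and PLK4, of centriole duplication, with 9, 8 and 11, were below the filter. Of 10 matched partners and substrates of these kinases 6 were compared and none was called in any comparison, which is near the background share, with a median log2 fold of -0.17 in CMT against IM and 0.12 in CM against IM. PLK5, chosen for its values, was the one polo-like kinase called.

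Against IM the other medium-chain synthetases were far more even than ACSM5, which was chosen for its distance from IM. ACSM2B, which activates benzoate and medium-chain fatty acids, gave 57024 counts in CMT, 50397 in CM and 52067 in IM, with a CM over IM fold of 0.848 (0.837 to 0.858) and a CMT over IM fold of 1.37 (1.35 to 1.39). ACSM4 gave 5386, 6806 and 8997 counts in that order, a CM over IM fold of 0.663 (0.642 to 0.684). ACSM3 gave 1757 counts in CMT, 922 in CM and 1446 in IM. It was higher in CMT than in CM by 2.72-fold (2.51 to 2.95), the one call among the 3, beside 1.84% of all compared genes. In all 3 the CM over IM fold was below 1, opposite to ACSM5. These genes resemble each other in sequence, and how the counting assigned shared reads is unknown.

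Other genes of acyl-CoA metabolism were compared too. Of 16 compared synthetases of other families, SLC27A2, a fatty acid transporter and very-long-chain synthetase, was the one called: it gave 4375 counts in CMT, 1682 in CM and 4736 in IM, with CM called lower than IM and CMT called higher than CM. GLYAT, which joins activated aromatic acids to glycine, gave 2501 counts in CMT, 2677 in CM and 2017 in IM and was not called, with a CMT over IM fold of 1.55 (1.46 to 1.65). None of 16 compared genes of medium- and short-chain beta-oxidation was called in any comparison; with 0.595% to 1.84% of all genes called per direction and comparison, that is near the background. Their median log2 fold was -0.02 in CMT against IM and 0.02 in CM against IM. ACADM, the medium-chain dehydrogenase, had folds of 0.912 (0.879 to 0.945) for CMT over IM and 0.881 (0.852 to 0.911) for CM over IM.

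NELL1, the paralog of NELL2, was rare, with 5 counts in CMT, 9 in CM and 23 in IM, and was below the filter. Its folds were 0.272 (0.0808 to 0.731) for CMT over IM and 0.343 (0.140 to 0.769) for CM over IM, so IM was again the highest library, without an interval beyond 2-fold. The known receptors of NELL2 had few counts: ROBO3 gave 5 counts in CMT, 4 in CM and 4 in IM, and ROS1 gave 17, 0 and 6, both below the filter. OVCH2, a protease of the mouse epididymal pathway, had 0 counts in all 3 libraries. ROBO1, a SLIT receptor, gave 55 counts in CMT, 92 in CM and 33 in IM, with folds over IM of 2.08 (1.33 to 3.31) in CMT and 2.44 (1.62 to 3.75) in CM, not called. Of the 11 genes of this list 5 were compared, and 5 of 8 SLIT ligands and thrombospondins, and none of these 10 was called in any comparison, which is near the background share.

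**Figure D5:**
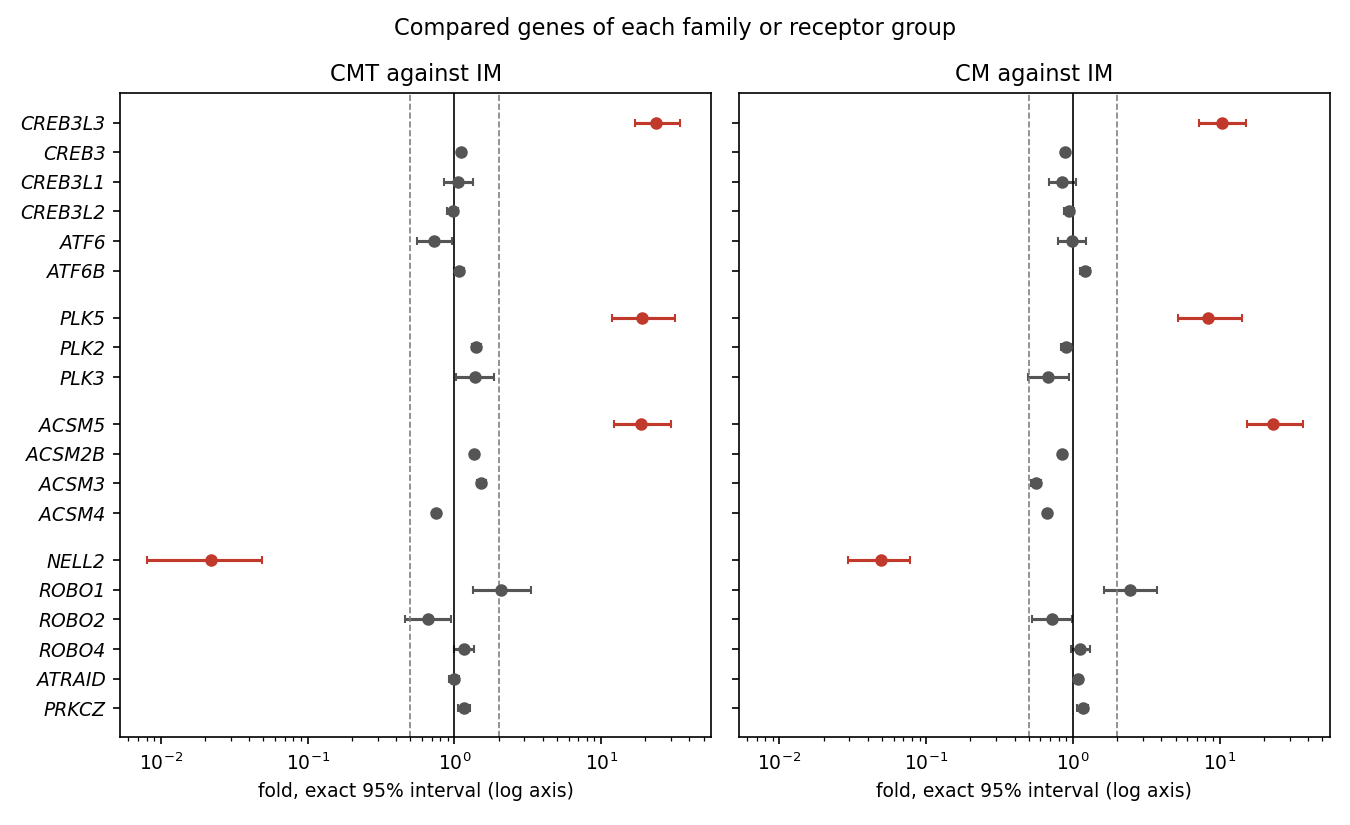
Fold of CMT over IM and of CM over IM for the 4 genes (red) and the compared genes of each family or receptor group (grey), on a log axis, with exact 95% intervals; the solid line marks 1 and the dashed lines 2-fold. The grey intervals all reach inside the dashed lines in both panels, while the 4 red ones lie beyond them.

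Markers of other tissues in which the 4 genes are known were looked at as well. The sums for neurons and enterocytes were low, and that for hepatocytes was not. Of 9 neuron genes 6 were matched. They summed to 2.04 CPM in CMT, 2.75 in CM and 5.13 in IM, and NEFM was at 0 in all 3 libraries. SNAP25, of synaptic vesicle release, gave 7 counts in CMT, 4 in CM and 29 in IM and was below the filter. The 1 neuron gene that passed the filter had log2 folds of -0.24 in CM against IM and -1.10 in CMT against IM, not called. The part of the neuron genes in the NELL2 difference was not tested. All 6 enterocyte genes were matched; they summed to 1.66 CPM in CMT, 1.48 in CM and 0.121 in IM, and FABP2, SI, CDX1 and CDX2 were at 0 in all 3 libraries. That sum lay mainly in MTTP, which loads lipid onto apolipoprotein B in gut and liver, with 19 counts in CMT, 24 in CM and 2 in IM. Of 10 hepatocyte genes 9 were matched and 5 passed the filter. The 9 summed to 646 CPM in CMT, 320 in CM and 760 in IM, and CYP2E1 was at 0 in all 3 libraries. Most of each sum lay outside ALB and TTR. ALB stood at 30.5 CPM in CMT, 1.27 in CM and 118 in IM, and TTR at 58.6, 25.9 and 8.03. ALB was lowest in CM, with 404 counts in CMT, 24 in CM and 1952 in IM, and TTR was lowest in IM. Against IM, 2 of the 5 compared markers had log2 folds above 0 in CM and 2 in CMT, so they had no common direction there. In CM against IM 1 was called higher and 2 lower, with a median log2 fold of -1.14, beside 1.20% and 1.52% of all compared genes. In CMT against IM 1 was called higher and 1 lower, with a median of -0.19, beside 0.905% and 0.595%. In CMT against CM all 5 had log2 folds above 0, with a median of 0.94. In that comparison 2 were called higher and 0 lower, beside 1.84% and 1.11% of all compared genes. The part of these markers in the differences of CREB3L3 and ACSM5 was not tested.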

How the data were processed

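Per the labels' protocols, kidney RNA was extracted with TRIzol, pooled by group and prepared with an Ion Torrent total RNA kit. The authors deposited raw counts per gene, whole numbers with unequal totals. FastQC is the tool named in the submitters' processing notes; the aligner, counter, strand setting, genome build and annotation are not given in the sources used here. Symbols for 1556 of 19902 numbered identifiers came from the RefSeq gene table of Sscrofa11.1, which also gave gene order; no coordinates are printed.

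TMM factors of 0.973 in CMT, 1.02 in CM and 1.01 in IM came from edgeR 4.0.16 in R 4.3.3. Fold intervals are Clopper-Pearson intervals of a library's share of counts and level intervals are exact Poisson, from SciPy 1.17.1; sequenced reads are not independent molecules, so both cover counting error only. Log2 folds used a prior count of 2. The fold rule was run on simulated Poisson counts. These hold counting error only, so the run says nothing of the spread between pigs or libraries.

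The 4 genes, the gene lists and the settings were chosen with earlier results of these data known. Named were the 4 genes, the 3 nearest patterns of each, the 5 top genes per direction on one side of IM in both castrate libraries, called list members and family members, and SULT2A1 and HSD17B2. The alternatives were other library scalings, including DESeq2 1.42.0 size factors, thinning, other intervals, folds and filters on low counts, and another prior count.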

Additional observations from a re-analysis of the deposited data

How the results depend on the processing

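No paired analysis was possible because each group has 1 library, and no library could be left out for the same reason. Against IM, all 4 genes kept their direction and call in both castrate libraries under the 8 alternatives run for them, with CM over IM folds over 5 scalings of 10.3 to 10.8 for CREB3L3, 8.22 to 8.48 for PLK5 and 21.7 to 23.6 for ACSM5, and NELL2 lower by 20.1 to 22.2-fold. In CMT against CM the call of CREB3L3 was lost at 2.21-fold with total counts, also without ribosomal and mitochondrial genes, at 2.28-fold after thinning, and at 2.32-fold with a 99% interval or a 4-fold rule; PLK5, at 2.26-fold, was called with a 1.5-fold rule. With a 1.5-fold rule the calls higher and lower were 356 and 223 in CMT against IM, 434 and 529 in CM against IM, and 570 and 404 in CMT against CM. With a 4-fold rule they were 34 and 17, 53 and 74, and 93 and 37. With a mean of at least 5 CPM they were 89 and 43 in CMT against IM and 116 and 155 in CM against IM, and 99 lower in CMT against CM; fewer genes are tested there. Genes on the same side of IM in both castrate libraries numbered 132 higher and 72 lower with a 1.5-fold rule, 15 and 4 with a 4-fold rule, and 13 lower with a mean of at least 5 CPM. The median log2 fold of the CREB3L3 target list in CMT against CM turned to 0.12 without a filter, which admits genes with few counts; the other 107 recomputed list medians moved by no more than the spread among their genes or the counting interval.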

Other observations

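The genes that lie beside the 4 on the Sscrofa11.1 assembly were looked at as well. The 3 nearest compared protein-coding genes on each side of each gene, 24 in all and chosen for this by position alone after the values of the 4 were seen, gave 0 calls in any of the 3 comparisons, beside 0.905% of compared genes called higher and 0.595% lower in CMT against IM, 1.20% higher and 1.52% lower in CM against IM, and 1.84% higher and 1.11% lower in CMT against CM. With shares this small, 0 of 24 is near the background and says nothing particular of these neighbours. Among them were ACSM2B and ACSM4 beside ACSM5, and UMOD, the abundant urinary protein of the loop of Henle, on its other side, with 105591 counts in CMT, 130566 in CM and 94626 in IM. GP2 beside ACSM5 gave 153 counts in CMT, 94 in CM and 187 in IM, with folds of 0.440 (0.340 to 0.567) for CM over IM and 2.32 (1.79 to 3.04) for CMT over CM. ANKRD24 beside CREB3L3 gave 79 counts in CMT, 113 in CM and 45 in IM, and its fold over IM was 2.20 in both castrate libraries, with an interval of 1.54 to 3.18 in CM. No annotated gene of that assembly overlapped any of the 4. CREB3L3 and PLK5, the pair with the closest patterns, lie on the same chromosome with 79 protein-coding genes between them. Both were chosen by the values that make up these patterns, and a tie between position and level was not tested.

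THBS4, a thrombospondin of the extracellular matrix below the filter, gave 17 counts in CMT, 1 in CM and 21 in IM, so that CM was its lowest library, as for ROS1.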
